A study of Homo sapiens with 6 samples.

Results

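BMP2, BMP4 and BMP7, which encode bone morphogenetic protein (BMP) ligands, the feedback inhibitors SMAD6 and BAMBI, and the target genes ID1, ID2 and ID3 were examined in MCF10A cells depleted of YAP and TAZ. The 8 genes were taken by Entrez identifier from a count table of 23459 genes, and 8 of 8 were found in it. MCF10A is a single untransformed line of human mammary epithelium, grown with horse serum, insulin, hydrocortisone, cholera toxin and EGF. The descriptions of all 6 libraries carry the mark WT. The cells were transfected with siRNA at 20 nM. The siCtrl group (3 libraries) received a non-targeting siRNA and the siYAP/TAZ group (3 libraries) received siRNAs to both genes, and RNA was read from its 3′ end. TAZ is encoded by WWTR1. The study concerned genes that YAP and TAZ share with JUN, an AP-1 factor, and these libraries give the effect of losing YAP and TAZ. An siRNA lowers a transcript and does not remove it. The time between transfection and harvest is not given in the sources used here.

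BMP ligands are secreted dimers that bring together type I and type II receptor kinases, which phosphorylate SMAD1, SMAD5 and SMAD9. These bind SMAD4 and act on genes in the nucleus. The ID genes are among the most widely used readouts of the pathway. Their products are helix-loop-helix proteins without a DNA-binding region, which take up E proteins and keep them from DNA. SMAD6, an inhibitory SMAD, and BAMBI, a receptor-like protein without a kinase domain, are themselves induced by the pathway and damp it. In the mammary gland ID1 is known for its link to proliferation and ID2 for its link to differentiation.

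The sequence just before the start of a gene is where its basal promoter lies, and the ID genes and BAMBI are shown because their levels varied together between libraries. The windows are the 250 bases that precede the RefSeq start in GRCh38.p14, written 5′ to 3′ on the strand of the gene. They are chr20:31605039-31605288 (plus strand) for ID1, chr2:8681806-8682055 (plus) for ID2, chr1:23559502-23559751 (minus) for ID3 and chr10:28677271-28677520 (plus) for BAMBI. Capitals mark matches on either strand to the GC-rich SMAD palindrome GGCGCC or the SMAD box CAGAC, which reads GTCTG on the other strand.
ID1: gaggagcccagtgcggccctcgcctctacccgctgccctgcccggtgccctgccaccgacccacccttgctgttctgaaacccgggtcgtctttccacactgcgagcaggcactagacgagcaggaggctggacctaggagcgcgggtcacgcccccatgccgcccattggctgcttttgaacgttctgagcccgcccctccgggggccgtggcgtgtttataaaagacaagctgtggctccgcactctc
ID2: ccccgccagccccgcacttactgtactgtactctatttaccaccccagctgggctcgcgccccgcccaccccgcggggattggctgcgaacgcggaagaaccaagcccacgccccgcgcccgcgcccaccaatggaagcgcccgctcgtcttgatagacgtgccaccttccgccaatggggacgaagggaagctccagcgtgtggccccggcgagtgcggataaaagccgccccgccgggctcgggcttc
ID3: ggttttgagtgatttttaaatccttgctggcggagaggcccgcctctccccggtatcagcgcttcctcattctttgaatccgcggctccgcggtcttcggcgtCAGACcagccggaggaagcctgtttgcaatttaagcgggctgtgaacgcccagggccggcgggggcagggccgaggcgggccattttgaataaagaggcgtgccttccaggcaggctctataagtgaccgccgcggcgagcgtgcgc
BAMBI: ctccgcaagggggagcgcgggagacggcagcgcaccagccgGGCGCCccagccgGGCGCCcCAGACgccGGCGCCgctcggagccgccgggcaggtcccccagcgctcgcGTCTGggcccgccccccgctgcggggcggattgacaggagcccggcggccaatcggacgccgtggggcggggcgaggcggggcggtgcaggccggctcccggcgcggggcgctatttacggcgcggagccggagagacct

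The BAMBI window held 3 copies of GGCGCC and 2 of CAGAC, the ID3 window held 1 CAGAC, and the ID1 and ID2 windows held neither. Of 27305 windows of this length, 16.1% held GGCGCC and 37.8% held CAGAC. The TEAD motif GGAATG, the site type through which YAP and TAZ reach DNA, was in 11.9% of all windows, and the AP-1 motif TGANTCA was in 6.60%. Neither was found in the windows of ID1, ID2, ID3, BAMBI, SMAD6 or BMP4. Elements of ID1 that bind SMADs are known to lie farther upstream than this window. GC content was 66% for ID1, 69.2% for ID2, 62% for ID3 and 81.2% for BAMBI, against a median of 58% over all windows. These matches describe letters in a window and were not tested for binding.

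Between 3175149 and 4317286 reads were counted per library. Where a gene has a count of 0, up to 3 counts remain possible. On the CPM scale, in which counts are divided by the TMM-adjusted library size, the floor of 3 counts was 0.695 to 0.945 depending on the library. It covers counting error only. Nothing in the labels says whether the 3 libraries of a group came from separate cultures, so p-values measure the spread between these libraries. For 2 libraries, siCtrl replicate 2 and siYAP/TAZ replicate 2, both the title and the genotype entry name the other group than the description, which is also the column name and was used here. The design text of the series speaks of JUN activation, which no sample label mentions. In siCtrl YAP1 stood at 189, 204 and 210 CPM, against 117, 118 and 112 in siYAP/TAZ, and WWTR1 at 109, 109 and 102 against 70.5, 67.1 and 59.8 CPM. Both targeted genes thus followed the descriptions in 6 of 6 libraries. siCtrl replicate 2 stood apart within its group, with a chi-square per degree of freedom of 17.4 and 14.1 against the other siCtrl libraries, while these had 5.37 between them. siYAP/TAZ replicate 1, which holds the most ID2, ID3, SMAD6 and ATOH8, had 14.2 and 7.91 against siYAP/TAZ replicates 2 and 3, and 6.56 lay between these. All 10 epithelial markers were above 3 counts in all 6 libraries. Their summed level moved with the groups, at 2909 to 3011 CPM in siCtrl and 2123 to 2216 CPM in siYAP/TAZ. Most of it was KRT6A (12726 counts in all in siCtrl, 8102 in siYAP/TAZ) and KRT5 (9770 and 7295). KRT14, KRT17, KRT18 and EPCAM also had fewer counts in siYAP/TAZ. TP63 (533 and 803), CDH1 (1262 and 1581), KRT8 (239 and 278) and CDH3 (1974 and 2051) had more, before scaling, so the markers did not move as a set. The 5 fibroblast markers summed to 157 to 173 and 158 to 184 CPM, almost all of it PDGFRA, with COL1A2 and COL3A1 at 0. The 3 endothelial markers summed to 2.01 to 3.39 and 4.76 to 11.2 CPM, where PECAM1 was counted 6, 4 and 4 times in siCtrl, against 14, 29 and 18 in siYAP/TAZ. The 3 leukocyte markers summed to 1.44 to 4.94 and 1.36 to 3.97 CPM. The part of these shifts in the results that follow was not tested.

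After depletion of YAP and TAZ the members did not move as one group. ID2 was higher in siYAP/TAZ than in siCtrl within each replicate number, by 3.00 to 11.6 times, and passed the threshold once the replicate number was in the fit. ID1 did not pass in either fit and its siYAP/TAZ to siCtrl ratio stayed between 0.714 and 1.07. ID3 and BAMBI were higher in replicates 1 and 3 and not in replicate 2, and neither passed. BMP2 was lower in each siYAP/TAZ library than in any siCtrl library and did not pass. It entered the test through its siCtrl counts alone, so this gap adds no support. BMP4 had the same mean in both groups, and BMP7 was at or below the floor in all 6 libraries. SMAD6, too low for the filter, had 12 counts in all in siCtrl and 69 in siYAP/TAZ.

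**Figure D1:**
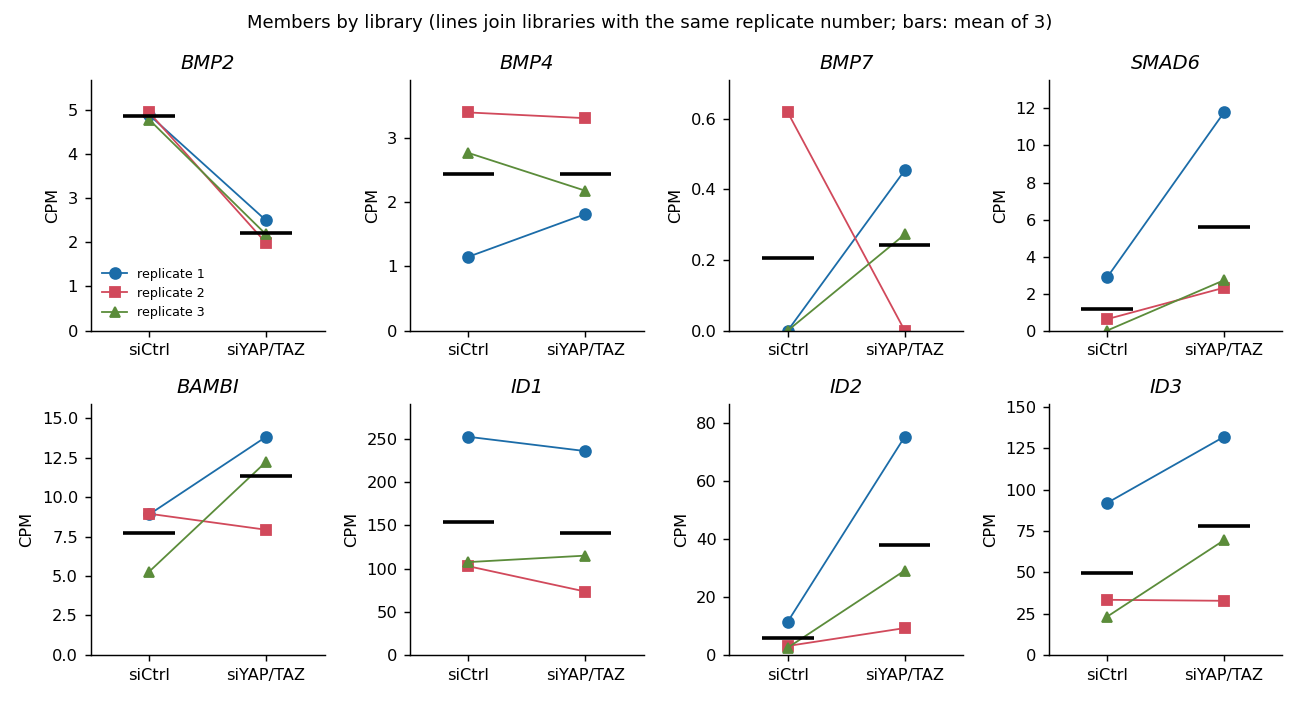
Level in CPM (vertical axes, each from 0) of the 8 members in the 3 siCtrl and 3 siYAP/TAZ libraries, with lines joining libraries of the same replicate number and black bars at the group means. Replicate 1 is the highest of its group for ID1, ID2 and ID3 on both sides, and the BMP2 groups do not overlap. BMP2 met the low-count filter through its siCtrl counts alone.

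With group as the only term, edgeR's quasi-likelihood test called 1.96% of the 12510 genes tested at an adjusted p under 0.05, 1.22% lower and 0.743% higher in siYAP/TAZ. Of the 8 members, 6 passed the low-count filter and 0 of these were called, with 2 at an unadjusted p under 0.05, ID2 and BMP2. DESeq2 also called 0, with 2 at an unadjusted p under 0.05. The labels do not say that libraries of the same replicate number belong together, but such libraries were treated as pairs. The fit was repeated with the number as a block, which called 10.1% of all genes, 5.44% lower and 4.66% higher. In that fit 1 of 6 tested members was called, ID2, and 3 had an unadjusted p under 0.05, ID2, ID3 and BMP2. Groups did not overlap, lower in siYAP/TAZ, for 11.1% of all genes tested and for 1 member, BMP2. They did not overlap, higher in siYAP/TAZ, for 11.0% of all genes and for 0 of the tested members. BMP2 met the low-count filter through its siCtrl counts alone, which favoured a gap in that direction. The median log2 fold change over the 6 tested members was 0.27, beside -0.00093 over all genes tested.

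ID2 (Entrez 3398; GRCh37 chromosome 2, 8818975 to 8824591, plus strand), an inhibitor of E proteins, was counted 40, 10 and 10 times in siCtrl replicates 1, 2 and 3, against 332, 28 and 107 in siYAP/TAZ. These were 11.5, 3.09 and 2.51 CPM against 75.2, 9.26 and 29.1 CPM. The groups overlapped, since siCtrl replicate 1 lay above siYAP/TAZ replicate 2, but each siYAP/TAZ library was above the siCtrl library of its own number. The means were 5.70 ± 5.02 and 37.9 ± 33.9 CPM (SD, n = 3), so the SD was close to the mean in both groups. The log2 fold change was 2.76 (SE 0.75) with an adjusted p = 0.0969 in edgeR. With the replicate block it was 2.72 (SE 0.29) with an adjusted p = 0.000543, a similar size with a smaller SE. In this bulk RNA, a change in the number of cells with ID2 and a change in ID2 per cell cannot be told apart. Without the low-count filter, which is applied across all genes, the adjusted p was 0.0135. The annotated lncRNA ID2-AS1 overlaps the first part of ID2 on the opposite strand. The 3′ end of ID2, which these libraries read, lies outside the overlap, and ID2-AS1 was not analysed here.

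ID1 (Entrez 3397; GRCh37 chromosome 20, 30193086 to 30194318, plus strand), the ID gene with a known link to proliferation in mammary cells, was counted 880, 333 and 428 times in siCtrl, against 1042, 222 and 423 in siYAP/TAZ. Its levels were 253, 103 and 108 CPM against 236, 73.4 and 115 CPM. Replicate 1 stood high on both sides and the groups overlapped throughout. The log2 fold change was -0.12 (SE 0.44; edgeR, adjusted p = 0.917), and with the block it was -0.15 (SE 0.13, adjusted p = 0.520). Within a number, the siYAP/TAZ to siCtrl ratio was 0.934, 0.714 and 1.07 for replicates 1, 2 and 3.

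ID3 (Entrez 3399; GRCh37 chromosome 1, 23884417 to 23885992, minus strand), which also binds E proteins, was counted 320, 108 and 92 times in siCtrl, against 582, 99 and 255 in siYAP/TAZ. In CPM these were 91.9, 33.3 and 23.1 against 132, 32.7 and 69.4. Replicate 1 was again the highest on both sides, and the replicate 2 libraries differed by less than 1 CPM. The ratio within a number was 1.44, 0.982 and 3.00. The log2 fold change was 0.67 (SE 0.55; edgeR, adjusted p = 0.569) and 0.70 (SE 0.24, adjusted p = 0.0892) with the block. With the block and no low-count filter the adjusted p was 0.00153. With the filter and the block, leaving out both libraries of replicate 1, 2 or 3 gave log2 fold changes of 0.81 (adjusted p = 0.152), 0.95 (7.26e-05) and 0.29 (0.582). The size of the ID3 difference thus depended on which pair was left out. The fit without the replicate 2 pair called 3060 of the 12729 genes it tested. In the fit with group only it was 1.49 with siCtrl replicate 1 left out and 0.056 with siYAP/TAZ replicate 1 left out. ID4, the remaining gene of the family, was at 0 counts in 6 of 6 libraries.

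The 3 ID genes varied with the replicate number in the blocked fit. The test of the replicate term called 1.81% of all genes, and among the members it called ID1 (adjusted p = 0.00327), ID2 (0.0115) and ID3 (0.0223). BMP2, BMP4 and BAMBI were not called, with adjusted p-values of 0.983, 0.491 and 0.724. As a description over 6 libraries, which share a number in pairs, departures of log2 CPM from each group mean correlated at r of 0.982 for ID1 with ID2, 0.967 for ID1 with ID3 and 0.982 for ID2 with ID3. BAMBI followed them at r of 0.691, 0.795 and 0.829 for ID1, ID2 and ID3. Without removing the group means, r was 0.541, 0.838 and 0.882 in the same order, so ID2 followed ID1 less closely across the groups. The 3 tested genes whose log2 CPM was most like that of ID1 over the 6 libraries were MKNK1-AS1 (r of 0.993), SRXN1 (0.988) and SLC23A1 (0.985). Each was highest in replicate 1 on both sides, as SRXN1 shows with 118, 70.0 and 68.4 CPM in siCtrl and 127, 58.2 and 78.3 in siYAP/TAZ. MKNK1-AS1 is an antisense gene, and whether the counting used strand is not stated, so its reads are uncertain.

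**Figure D2:**
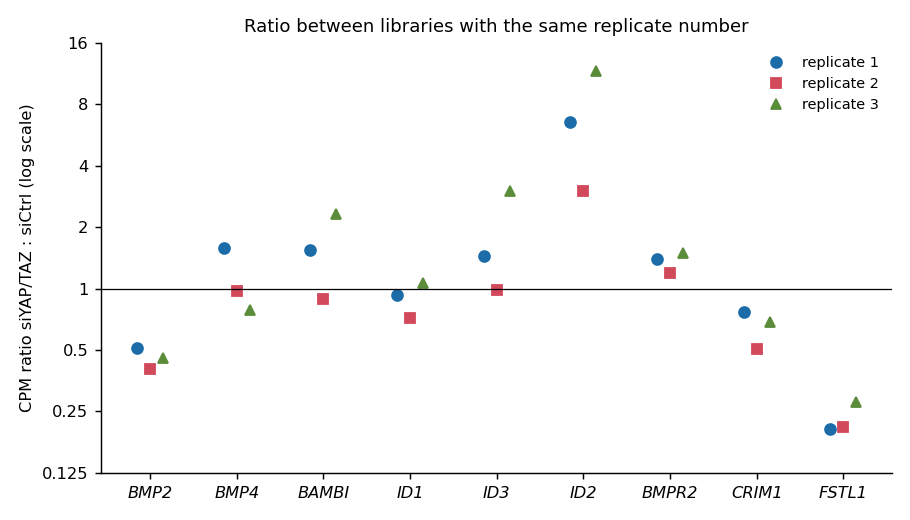
Ratio of CPM in siYAP/TAZ to CPM in siCtrl (log scale) between libraries of the same replicate number, for the 6 tested members and for BMPR2, CRIM1 and FSTL1. All 3 ratios of ID2 lie at or above 3.00 and all 3 of BMP2 at or below 0.511, while those of BMP4, BAMBI, ID1 and ID3 lie on both sides of 1.

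BAMBI (Entrez 25805; GRCh37 chromosome 10, 28966439 to 28971861, plus strand), the receptor-like inhibitor, was counted 31, 29 and 21 times in siCtrl, against 61, 24 and 45 in siYAP/TAZ. Its levels were 8.90, 8.95 and 5.28 CPM against 13.8, 7.93 and 12.2 CPM. siYAP/TAZ replicates 1 and 3 lay above all siCtrl libraries, and siYAP/TAZ replicate 2 lay within them. The means were 7.71 ± 2.11 and 11.3 ± 3.05 CPM (SD, n = 3), with a log2 fold change of 0.58 (SE 0.32; edgeR, adjusted p = 0.374) and an adjusted p = 0.265 with the block. With the block kept and both libraries of replicate 1, 2 or 3 left out, a choice made after seeing the data, BAMBI had log2 fold changes of 0.54 (adjusted p = 0.581), 0.90 (0.0341) and 0.27 (0.811). The fit with 0.90 called 3060 of the 12729 genes it tested.

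SMAD6 (Entrez 4091; GRCh37 chromosome 15, 66994574 to 67075187, plus strand), the inhibitory SMAD, was counted 10, 2 and 0 times in siCtrl, against 52, 7 and 10 in siYAP/TAZ. The CPM values were 2.87, 0.617 and 0 against 11.8, 2.31 and 2.72, and 2 of the siCtrl libraries were at or below the floor. The groups overlapped through siCtrl replicate 1, and the replicate 1 libraries were again the highest of each group, 4.10 times apart. SMAD6 did not pass the low-count filter. Without the filter, edgeR gave a log2 fold change of 2.33 (SE 0.77; edgeR, adjusted p = 0.138), and with the block as well 2.35 (SE 0.53, adjusted p = 0.00059). The fold rests on few control counts and on a prior count. An annotated lncRNA lies within SMAD6 on the same strand and was not analysed here.

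BMP2 (Entrez 650; GRCh37 chromosome 20, 6748333 to 6760893, plus strand), a ligand, was counted 17, 16 and 19 times in siCtrl, against 11, 6 and 8 in siYAP/TAZ. Its levels of 4.88, 4.94 and 4.77 CPM in siCtrl, against 2.49, 1.98 and 2.18 in siYAP/TAZ, did not overlap. The means were 4.86 ± 0.0829 and 2.22 ± 0.257 CPM (SD, n = 3), and the ratio within a number was 0.511, 0.402 and 0.456. Without the block the log2 fold change was -1.11 (SE 0.33; edgeR, adjusted p = 0.125) and with it -1.11 (SE 0.38, adjusted p = 0.0935). BMP2 was not called under any alternative that gave an adjusted p, and its log2 fold change was -0.32 when the groups followed the titles. With 6 to 19 counts a library, counting error alone is large. BMP2 met the low-count filter through its siCtrl counts alone, so its test and the gap between the groups add no support.

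BMP4 (Entrez 652; GRCh37 chromosome 14, 54416454 to 54425479, minus strand), a second ligand, was counted 4, 11 and 11 times in siCtrl, against 8, 10 and 8 in siYAP/TAZ. Its means were 2.44 ± 1.16 and 2.43 ± 0.778 CPM (SD, n = 3), with a log2 fold change of -0.034 (SE 0.48; edgeR, adjusted p = 0.980) and 0.021 with the block. BMP7 (Entrez 655; GRCh37 chromosome 20, 55743809 to 55841697, minus strand) was counted 0, 2 and 0 times in siCtrl, against 2, 0 and 1 in siYAP/TAZ. All 6 values are at or below the floor, so a difference in BMP7 was not detectable at this depth and no fold is given. Annotated lncRNAs overlap BMP4 and BMP7 on the opposite strand and were not analysed here.

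**Figure D3:**
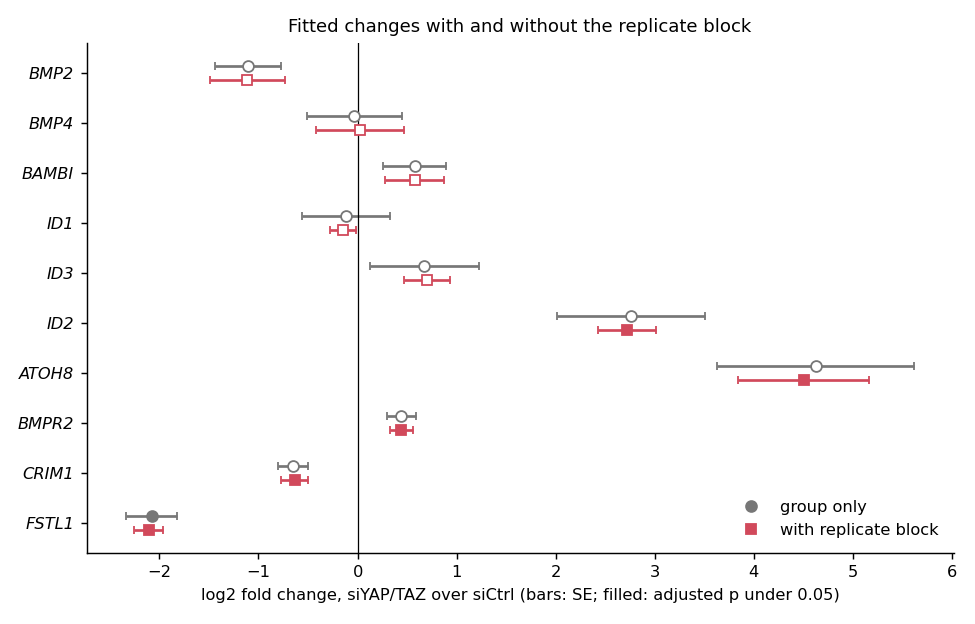
Log2 fold change of siYAP/TAZ over siCtrl with its SE for the 6 tested members and 4 other pathway genes, in the fit with group only (circles) and with the replicate block (squares). Filled symbols mark an adjusted p under 0.05, which FSTL1 has in both fits and ID2, ATOH8, BMPR2 and CRIM1 have with the block. ATOH8 met the low-count filter through its siYAP/TAZ counts alone, so its call adds no support. The SE of ID2, derived from the F statistic of each fit, drops from 0.75 to 0.29 while its log2 fold change stays near 2.7.

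Leaving out siCtrl replicate 2, which stood apart, gave log2 fold changes of 2.50 for ID2 (adjusted p = 0.0603 in edgeR), -0.33 for ID1 (0.656), 0.47 for ID3 (0.626), 0.71 for BAMBI (0.218), -1.09 for BMP2 (0.107) and 0.25 for BMP4 (0.815). Again 0 members were called, with 2 at an unadjusted p under 0.05. Leaving out siYAP/TAZ replicate 1 gave 1.77 for ID2 (0.219), -0.71 for ID1 (0.398) and 0.41 for BAMBI (0.622), with 0 members called and 2 at an unadjusted p under 0.05. With both libraries of disputed label left out, ID2 was called (2.95, adjusted p = 0.00979) and the other tested members were not. With the groups taken from the titles, the log2 fold change of ID2 was 2.24 and its adjusted p 0.898, and 0 genes of any kind were called in edgeR, with 464 at an unadjusted p under 0.05. The block kept ID2 past the threshold when both libraries of replicate 1, 2 or 3 were left out, with adjusted p-values of 0.00166, 7.83e-11 and 0.0156. Only 2 libraries a group remained in each of these fits, which called 608, 3060 and 193 of all genes tested.

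The remaining genes of the pathway were followed as a list of 60, of which 34 passed the filter, 15 had counts but did not pass and 11 were at 0 throughout. Of the 34, 18 had a log2 fold change above 0 and 16 below, with a median of 0.059 beside -0.00093 for all genes. Group alone called 1 of them, FSTL1, and the block called 4, FSTL1 and CRIM1 lower and ATOH8 and BMPR2 higher. These are shares of 2.94% and 11.8% of the genes tested in the list, beside 1.96% and 10.1% of all genes. The 11.8% includes ATOH8, which met the filter through its siYAP/TAZ counts alone and had to differ, so its call adds no support. The replicate term called 0 of the 34, with ATOH8 (adjusted p = 0.110) and FSTL1 (0.0997) nearest of the 4 genes named here.

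Among the extracellular modulators, FSTL1 (Entrez 11167), a secreted follistatin-like glycoprotein, stood at 103, 87.0 and 130 CPM in siCtrl, against 21.3, 18.2 and 36.2 in siYAP/TAZ. It fell without overlap, from 107 ± 21.5 to 25.2 ± 9.61 CPM (SD, n = 3), with a log2 fold change of -2.08 (SE 0.26; edgeR, adjusted p = 0.00879). Without siCtrl replicate 3 its adjusted p was 0.0605. CRIM1 (Entrez 51232), a membrane protein that binds BMPs, stood at 194, 266 and 201 CPM in siCtrl, against 148, 134 and 138 in siYAP/TAZ. Its log2 fold change was -0.65 (SE 0.15; edgeR, adjusted p = 0.0639), and it passed with the block (-0.63, adjusted p = 0.0139). Of the 18 modulators in the list 7 were tested, and the other 5 did not pass in either fit. NOG, which encodes the antagonist noggin, was among these 5, with only 4 to 15 counts in siCtrl and 8 to 20 in siYAP/TAZ.

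On the side of the receptors, BMPR2 (Entrez 659), the type II receptor for BMP ligands, stood at 95.9, 121 and 112 CPM in siCtrl, against 134, 145 and 168 in siYAP/TAZ. These groups did not overlap, and the log2 fold change of 0.44 (SE 0.14) had an adjusted p = 0.159 in edgeR and 0.0392 with the block. Without siCtrl replicate 2 and without the block it also passed (0.52, adjusted p = 0.0432). The other type II receptor with a high level, ACVR2A, had a log2 fold change of 0.31 (adjusted p = 0.433). The type I receptors BMPR1A and BMPR1B had 0.076 and -0.084, with adjusted p-values of 0.844 and 0.809. ACVR1, also a type I receptor, had 0.56 (adjusted p = 0.168 in edgeR, and 0.0841 with the block) and did not pass. It stood at 22.4, 18.8 and 21.4 CPM in siCtrl, against 26.7, 29.4 and 36.4 in siYAP/TAZ. These groups did not overlap, as for 11.0% of all genes tested in that direction. The co-receptors RGMB and ENG had -0.25 and -0.38 and did not pass. Of the ligands outside the members, BMP6 had 53.8 ± 8.92 CPM in siCtrl and 42.2 ± 5.73 in siYAP/TAZ (SD, n = 3; log2 fold change -0.35, adjusted p = 0.342), and GDF5 had a log2 fold change of 0.10 (0.836).

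Inside the cell, SMAD5 and SMAD4, which carry the signal to the nucleus, had log2 fold changes in edgeR of -0.20 (adjusted p = 0.478) and 0.082 (0.826). The ubiquitin ligase SMURF2 and the corepressor SKI, both of which restrain SMADs, had -0.40 (0.217) and 0.15 (0.696). The E proteins TCF12 and TCF4, the partners that ID proteins take up, had 0.080 (0.784) and 0.043 (0.908). None of these roles had a gene past the threshold with the block.

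Among the other targets, ATOH8 (Entrez 84913), a helix-loop-helix factor induced by BMP signalling, was counted 1, 2 and 0 times in siCtrl, against 70, 11 and 11 in siYAP/TAZ. As for the ID genes and SMAD6, siYAP/TAZ replicate 1 held the most. Summed over the libraries and scaled by TMM-adjusted library size, the ratio was 29.5 with a 95% counting interval of 9.79 to 146, from 3 counts in siCtrl and 92 in siYAP/TAZ. All siCtrl values are at or below the floor, so ATOH8 passed the filter through its siYAP/TAZ counts and had to differ, and its test adds no support. Of the 92 counts, 70 came from siYAP/TAZ replicate 1, and the interval leaves out the spread between libraries. The fitted log2 fold change, which depends on the prior count, was 4.62 with all libraries and 3.39 without that one. Its adjusted p was 0.0513 in edgeR and 0.00226 with the block. DESeq2 gave 0.00073 without the block and no adjusted p with it. RUNX2, a factor of bone formation, ranged from 13.9 to 21.0 CPM in siCtrl and from 8.59 to 12.5 in siYAP/TAZ (log2 fold change -0.70, adjusted p = 0.192, and 0.0636 with the block). The homeobox gene MSX1 had -0.057 (adjusted p = 0.944).

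Without siCtrl replicate 2 and with no block, ATOH8 (adjusted p = 0.0183 in edgeR), CRIM1 (0.0252) and RUNX2 (0.0489) also passed. With the block kept, CRIM1 had a log2 fold change of -0.68 and an adjusted p = 0.127 without the replicate 3 pair. BMPR2 had 0.42 (0.228) and 0.37 (0.367) without the replicate 1 and the replicate 3 pair. With all 6 libraries and the block, CRIM1 had -0.63 and BMPR2 0.44. CRIM1 passed at -0.76 and -0.46 without the replicate 1 and the replicate 2 pair, and BMPR2 at 0.54 without the replicate 2 pair. The fits without a pair had 2 libraries fewer, and why the calls changed was not tested. FSTL1 passed without each pair in turn, at an adjusted p up to 0.00212.

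**Figure D4:**
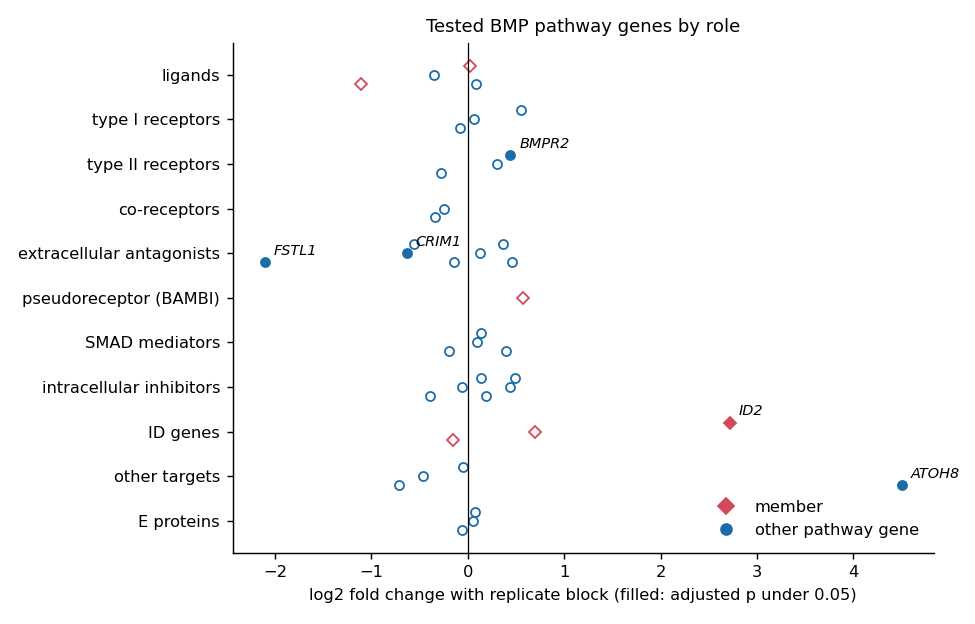
Log2 fold change with the replicate block (horizontal axis) of the 6 tested members (diamonds) and the 34 tested genes of the rest of the pathway (circles), ordered by role. Filled symbols have an adjusted p under 0.05, and they are FSTL1 and CRIM1 to the left of 0 and BMPR2, ID2 and ATOH8 to the right. The call of ATOH8, which met the low-count filter through its siYAP/TAZ counts alone, adds no support.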

How the data were processed

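RNA of 6 MCF10A samples was made into libraries with a QuantSeq 3′ mRNA-Seq FWD kit, which reads polyadenylated RNA from its 3′ end in the sense direction. The authors deposited raw counts per Entrez gene, with no normalisation. Their processing notes name Cutadapt 4.2, Bowtie2 2.3.5.1 and hg19. The study's RNA-Seq methods name countOverlaps (GenomicRanges) in R as the counter. Whether it was used for these 3′ libraries, with which annotation and whether by strand, is not given in the sources used here. Of 23459 identifiers, 23308 with 99.7% of the counts matched the RefSeq gene table, used for names. Coordinates are from GENCODE lifted to GRCh37, and promoter sequences from RefSeq GRCh38.p14 (no window is shown for BMP2 and BMP7).

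Counts were tested with edgeR 4.0.16 (R 4.3.3; quasi-likelihood F test, TMM scaling, default low-count filter, group as the only term, Benjamini-Hochberg over 12510 genes, adjusted p under 0.05). The study's methods use DESeq2 with default settings, which was an alternative (1.42.0), as were RLE or library-size scaling, no filter, a mean of at least 50 counts, the replicate block, each library left out, groups by title and both disputed libraries left out. CPM values are TMM-scaled. Each SE is the absolute log2 fold change divided by the square root of the F statistic, so it is not a measure separate from the test. The steps were tested on simulated data. No 2 libraries held identical values. Deviations from the group means correlated between same-numbered libraries at r of 0.416, 0.346 and 0.129 over 12510 genes, so the numbers, taken from the descriptions, were treated as pairs. The same correlation was not computed between libraries of different numbers.

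The members and gene lists were chosen with earlier results of these data known. Named genes are the members, YAP1, WWTR1, CCN1 and CCN2, list genes called in the fit with or without the block, the 2 tested list genes of each role with the highest mean CPM and the 3 genes most like ID1. NOG, ID4, PECAM1, ACVR1 and the single epithelial markers were added after their values were seen. The YAP/TAZ targets CCN1 and CCN2 had log2 fold changes of -2.41 (adjusted p of 0.0138) and -3.35 (0.0225), and 0.0803 and 0.132 as adjusted p without siCtrl replicate 3. CCN2 was counted 34, 23 and 55 times in siCtrl, against 5, 0 and 6 in siYAP/TAZ. It met the low-count filter through its siCtrl counts alone, so its test adds no support.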

Additional observations from a re-analysis of the deposited data

How the results depend on the processing

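The count of called genes was 245 and became 592 with DESeq2, 556 with no filter, 1263 with the replicate block, 0 with groups by title, 1183 without both disputed libraries, 1961 with the block and no filter, and 779 with the block in DESeq2. With libraries left out it ran from 16 to 3060. Called members were 0, and 1 with no filter, with the replicate block, without the disputed libraries and with the block in DESeq2 (ID2 each time), and 3 with the block and no filter (ID2, ID3 and SMAD6). Their number ran from 0 to 4 with libraries left out, the 4 being BAMBI, ID2, ID3 and SMAD6 without the replicate 2 pair. That fit called 3060 of the 12729 genes it tested, and 9 of 33 in the pathway list. Called genes of the pathway list were 1, and 3 with DESeq2, 3 with no filter, 4 with the replicate block, 0 by title, 2 without the disputed libraries, 5 with the block and no filter and 2 with the block in DESeq2, in a range of 0 to 9 with libraries left out; 5 were called without siCtrl replicate 2 and 0 without siCtrl replicate 3. ID2 kept its direction in 19 of 19 alternatives, with log2 fold changes of 1.77 to 3.78, and passed in 8. BMP4 changed sign with the replicate block (0.021), by title (0.016), with the block and no filter (0.023) and in DESeq2 with the block (0.061), and ran from -0.36 to 0.25 with libraries left out. ID1 was 0.068 by title and ran from -0.71 to 0.44. By title, ACVR2A was -0.052, BMPR1A -0.23, CRIM1 0.059, GDF5 -0.14, RGMB 0.24 and TCF4 -0.099. Without the disputed libraries, BMPR1A was -0.11, GDF5 -0.016 and TCF4 -0.038. With libraries left out, sign also changed within the ranges of BMPR1A (-0.11 to 0.17), BMPR1B (-0.18 to 0.0097), GDF5 (-0.0395 to 0.27), MSX1 (-0.36 to 0.12), SKI (-0.079 to 0.32), SMAD4 (-0.019 to 0.24) and TCF4 (-0.031 to 0.21). The cause of these changes was not tested. No scaling moved the median of all genes by more than 0.02. The choices that join the block with another setting were made after seeing the data. Depth limits BMP7, SMAD6, ATOH8, BMP2 and BMP4, with 0 to 19 counts in most libraries.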
